A study of Mus musculus with 8 samples.

Results

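Gene expression was described in 4 libraries of stimulated alveolar macrophages from wild-type mice (WT, strain C57BL/6J), out of 8 libraries in the whole series. These were all the columns that stood under the WT heading of the deposited count table, and no measured value was used to choose them. The other 4 libraries came from Batf2-/- mice and are not compared here. The study's stated question was the part that BATF2, a member of the AP-1 transcription factors, has in the polarization of macrophages. Alveolar macrophages of C57BL/6J mice were kept ex vivo in DMEM with newborn calf serum, were exposed to 10 ng/mL of interferon gamma for 4 h, and were then given 20% Klebsiella pneumoniae supernatant for a further 6 h. Each library was made from the cells of 4 mice pooled together, so differences between libraries are differences between pools, and those between single mice were averaged out. Unstimulated cells were not analysed here, so a level given here is the level after both agents and does not show how much of it the agents brought about.

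Alveolar macrophages are the resident phagocytes of the air spaces. They take up surfactant, dust and bacteria, and in the mouse they carry a surface pattern of their own, with the sialic acid lectin Siglec-F, the integrin CD11c and the mannose receptor. Interferon gamma signals through its receptor to the interferon regulatory factors, which switch on antigen presentation and the interferon-inducible GTPases that act against microbes inside cells. Bacterial products such as lipopolysaccharide and lipoproteins signal through toll-like receptors to NF-kB, which drives genes of tumour necrosis factor, interleukins and chemokines. Cells given both are commonly called classically activated, and nitric oxide synthase, encoded by Nos2, is the enzyme by which they are usually recognised in the mouse.

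Levels are given as TPM, the usual length-corrected measure of transcript abundance, computed here from the deposited counts. Each count was divided by the total length of the gene's merged exons, and the results were scaled to the same sum in each library, so that levels of different genes can be set side by side. Values after ± are the SD over n = 4 libraries. Libraries are numbered 1 to 4 by their column in the table, and no column could be tied to a replicate number of the labels. Library totals lay between 34783301 and 38770259 counts, and 13516 to 13792 genes were seen at least once. No test was run, because a single group is described and an exact test over 4 libraries cannot reach a p under 0.05. Where genes are ordered, the number of libraries in which the order held is given instead.

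The libraries were not alike in every respect. Library 4 stood apart by transcript length. Among genes at 1 TPM or more, those with under 1 kb of exon had a median log2 level 0.43 higher in library 4 than in the other 3 libraries, and those with over 8 kb were lower by a median log2 difference of -0.55. Libraries 1 and 2 leaned the other way, with -0.33 and -0.18 for the shortest class and 0.13 and 0.28 for the longest. Xist, the RNA of the inactive X chromosome, was at 4.24 and 4.75 TPM in libraries 1 and 3 and at 0 and 0.0128 in libraries 2 and 4. Ddx3y, a gene of the Y chromosome, was at 19.5 and 20.2 TPM in libraries 2 and 4 and at 0 and 0.108 in the others, so the pools differed in sex. Leaving out library 4 moved the named genes by a median of 1.09-fold. What part library 4 or the sex of the pool had in any single level was not tested.

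The cells carried the markers of stimulated alveolar macrophages. Of 24 alveolar macrophage markers, 22 were at 1 TPM or more, as were all 14 markers of stimulated macrophages. Among all 21695 protein-coding genes with a length, 9405 reached 1 TPM, a share of 43.4%. The chitinase-like protein gene Chil3, a hallmark of mouse alveolar macrophages, stood at 4505, 6335, 6104 and 6029.9 TPM in libraries 1 to 4, a mean of 5744 ± 836. Library 1 was lowest and the other 3 lay close together. The mannose receptor gene Mrc1 was at 332, 349, 291 and 194 TPM (292 ± 69.2), lowest in library 4. Car4, which encodes a membrane-bound carbonic anhydrase, was at 61.04, 74.1, 73.04 and 63.98 TPM (68.04 ± 6.52), and its libraries differed little. Siglecf, the gene of Siglec-F, was at 79.5 ± 10.6 TPM, and Itgax, the gene of CD11c, at 607 ± 170.4 TPM. Ctsk, the cathepsin K gene, led the list at 16099 ± 1586 TPM. The lipid-handling genes of resident alveolar macrophages were spread widely. Lpl, lipoprotein lipase, was at 608 ± 67.9 TPM, near Itgax. Fabp4, a fatty acid binding protein, was lower at 27.4 ± 4.73 TPM. Pparg, the nuclear receptor that sets up the alveolar macrophage programme, was at 9.76 ± 1.34 TPM. Krt79, a keratin gene, stood at 0.260 ± 0.0297 TPM and the eosinophil-type ribonuclease gene Ear10 had 0 counts in every library.

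The markers of stimulation were among the most abundant messages. Cxcl9, a chemokine induced by interferon gamma, was at 4352, 4195, 3871 and 3139.5 TPM in libraries 1 to 4, a mean of 3889.6 ± 539. Acod1, which encodes the enzyme that makes itaconate from an intermediate of the citric acid cycle, was at 3749, 3779, 3251 and 2321 TPM (3275 ± 681). Nos2 was at 917, 1113, 766 and 470.5 TPM (817 ± 271). Library 4 was lowest for all 3, and Nos2 had the widest range of the 3 as a ratio of highest to lowest library, from 470.5 to 1113 TPM. Their merged exons are 3016, 2623 and 4412 bases long. The median log2 difference of library 4 from the others was -0.11 for genes of 2 to 4 kb and -0.37 for those of 4 to 8 kb. What part length had in the values of these genes was not tested. In GRCm38, Cxcl9 (ENSMUSG00000029417) lies on chromosome 5 from 92321347 to 92328079 on the minus strand, Acod1 (ENSMUSG00000022126) on chromosome 14 from 103046977 to 103056573 on the plus strand, and Nos2 (ENSMUSG00000020826) on chromosome 11 from 78920787 to 78960254 on the plus strand.

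**Figure D1:**
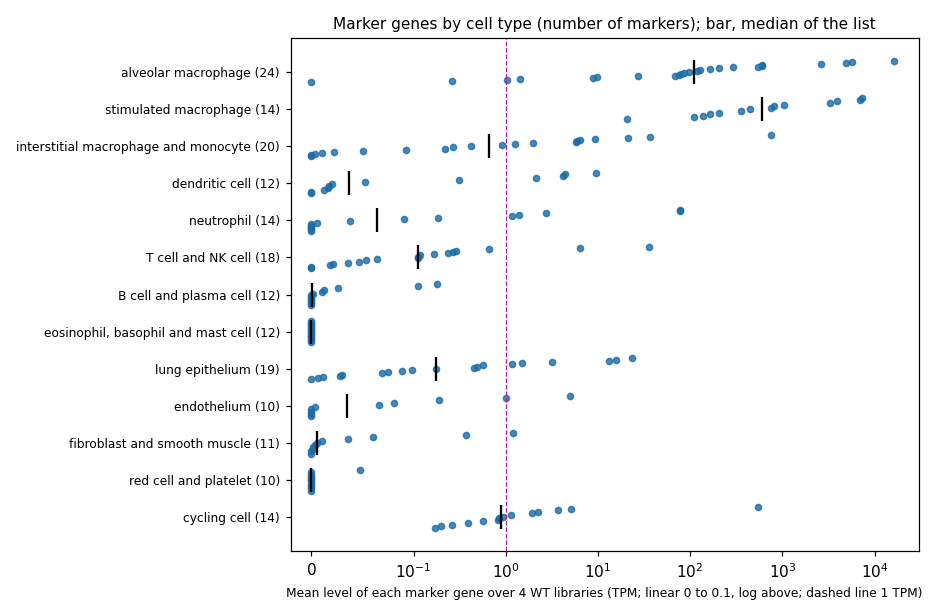
Mean level of each marker gene over the 4 WT libraries (horizontal axis, TPM, linear from 0 to 0.1 and log above; points, genes; bars, list medians), with the number of markers of each list in brackets. The medians of the alveolar macrophage list (109 TPM) and the stimulated macrophage list (601 TPM) lie far above 1 TPM, and those of all other cell type lists lie below it.

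Markers of other cells were mostly under 1 TPM. Because the samples are bulk RNA, fewer cells of a type and less RNA per cell cannot be told apart. All 12 markers of eosinophils, basophils and mast cells had 0 counts in all 4 libraries, and none of the 12 B cell and plasma cell markers or of the 10 red cell and platelet markers reached 1 TPM. Over all protein-coding genes, 43.4% reached 1 TPM and 36.8% had 0 counts in every library. A count of 0 allows up to 3 counts, or 0.0774 to 0.0862 CPM depending on the library, and this limit covers counting error only. Of 18 T cell and NK cell markers, 2 reached 1 TPM, and the summed level of the list was 34.8 to 55.6 TPM. Most of it was Il7r, the interleukin 7 receptor, at 35.8 ± 8.23 TPM, and the other was Lck, a kinase of T cell receptor signalling, at 6.38 ± 0.713 TPM, while the T cell receptor genes Cd3e, Cd3d and Trac stood at 0.0471, 0.118 and 0.268 TPM, with Trac at 0.730 in library 1. Of 12 dendritic cell markers 4 reached 1 TPM, with a summed level of 19.2 to 22.7 TPM. These were Batf3 at 9.51 ± 1.66 TPM, Ccr7 at 4.36 ± 0.969, Fscn1 at 4.19 ± 1.19 and Clec9a at 2.12 ± 0.180, whereas Flt3, Siglech and Cd209a were at or near 0. Endothelium had 2 of 10 markers at 1 TPM or more, with Vwf at 4.94 ± 1.46 TPM, and fibroblasts and smooth muscle 1 of 11.

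Neutrophil markers were uneven. Of 14, 5 reached 1 TPM (35.7%, against 43.4% of all protein-coding genes), and their summed level of 123 to 203 TPM lay almost wholly in 2 genes. Cxcr1, a receptor for CXC chemokines, was at 58.00, 123, 75.2 and 54.5 TPM (77.7 ± 31.6), highest in library 2. S100a8, which encodes a calcium-binding protein, was at 58.7, 73.1, 71.01 and 105 TPM (77.01 ± 19.9), whereas its usual partner S100a9 had 0, 0, 1 and 0 counts. Ly6g, Mpo, Elane, Ngp and Retnlg, which define neutrophils and their precursors in the mouse, had 0 counts in every library. Of 20 interstitial macrophage and monocyte markers 9 reached 1 TPM (45.0%), a share near the 43.4% of all protein-coding genes. Fcgr4, an activating Fc receptor, made up most of the summed 702 to 948 TPM at 745 ± 115 TPM. Csf1r was at 36.3 ± 11.9 TPM, Ms4a7 at 21.3 ± 6.90 and Apoe, a lipid carrier, at 9.34 ± 2.32. Ace and Treml4 were at 6.31 ± 2.49 and 5.95 ± 0.895 TPM. The complement genes C1qb, C1qa and C1qc were at 5.81 ± 1.33, 1.96 ± 0.607 and 1.26 ± 0.495 TPM and the monocyte genes Ccr2, Ly6c2 and Cx3cr1 at 0.220, 0.0221 and 0.00426 TPM. Of 19 lung epithelium markers 6 reached 1 TPM, summing to 54.6 to 65.3 TPM, led by Hopx (23.1 ± 3.58), Epcam (15.8 ± 1.60) and the lipid transporter gene Abca3 (13.2 ± 3.92). The surfactant protein gene Sftpc, among the most abundant messages of type 2 epithelial cells, was at 0.293, 0.317, 0.310 and 1.34 TPM. What part such cells had in the levels given below was not tested.

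A small set of genes held much of the message. The 10 most abundant genes of each library held 16.35 ± 0.324% of all TPM and the 100 most abundant held 43.56 ± 0.794%. Between 141 and 166 genes together held as much as all the others. By mean level, 150 genes stood at 1000 TPM or more, 1199 at 100 to 1000, 4435 at 10 to 100, and 3839 at 1 to 10 TPM. Another 2988 genes were under 1 TPM but above 3 counts in at least 1 library. At the other end, 33061 of the 48349 genes with a length had 0 counts in all 4 libraries.

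Iron storage, lysosomal and antigen-presenting genes led the ranking. Ftl1 and Fth1, the light and heavy chains of ferritin, were at 27983 ± 1973 and 24272 ± 453 TPM. Ftl1 was higher in all 4 libraries, although with the longest transcript of each gene as its length Fth1 came out higher, at 31731 against 30109 TPM, and with the median length of the transcripts tagged basic in the annotation, a setting added after seeing the data, at 55412 against 31190.5. Both have processed copies in the genome that could share their reads. Lyz2, the lysozyme of macrophages, ranked 3, at 13159, 20206, 21765 and 24529 TPM (19915 ± 4846), lowest in library 1. Ctsk ranked 4, and Psap, the precursor of the saposins that help degrade sphingolipids, was at 15316 ± 3772 TPM. Prdx1, a peroxiredoxin that removes peroxides, was at 14116 ± 2965 TPM, highest in library 4. B2m, the invariant chain of MHC class I, was at 13516, 13535, 12392 and 9836 TPM (12319.8 ± 1740.0), also lowest in library 4. Further proteases of the lysosome followed, with Ctsd at 10524 ± 1339, Ctss at 5765 ± 329.6, Ctsz at 4861 ± 754 and Ctsb at 4426 ± 274 TPM, and the 23 cathepsin genes as a class held 4.352 ± 0.147% of TPM. Cstb, an inhibitor of cathepsins, was at 6427 ± 1616 TPM. Ribosomal protein genes, 83 in all, held 6.23 ± 1.2% of TPM, and the 13 protein-coding genes of the mitochondrial genome 3.85 ± 1.07%.

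Products of activation stood in the same range as these housekeeping and lysosomal genes. Tnf, the gene of tumour necrosis factor, lies on chromosome 17 of GRCm38 from 35199381 to 35202007 on the minus strand (ENSMUSG00000024401) and ranked 13 among all genes. It stood at 7341, 8362, 7736 and 5914 TPM in libraries 1 to 4, a mean of 7338 ± 1039, lowest in library 4. Gbp2, a guanylate-binding protein that attacks membranes of intracellular microbes, ranked 14. Its level was 6780.3, 7225, 7149 and 6833 TPM (6997 ± 223), among the steadiest of the abundant genes, and Tnf was above it in 3 of 4 libraries. Chil3 ranked 18 and Cxcl9 ranked 27. For scale, Actb, the gene of beta-actin, was at 2250.0 ± 519 TPM and Gapdh at 571 ± 135, both below Tnf in every library. The distance depends on the gene length used. With the median length of basic transcripts Gapdh was at 1135 TPM, Actb at 2335 and Tnf at 4748. Mpeg1, which encodes the pore-forming perforin-2 of macrophages, was at 5236 ± 449.9 TPM, the lysosomal protein gene Cd68 at 3752 ± 742, and Cyba, a subunit of the oxidase that makes superoxide, at 3856 ± 1045. Pnp, a purine-salvage enzyme, completed the range at 4103 ± 428 TPM. The tetraspanin gene Cd9 was at 4874 ± 859 TPM. Lgals3, the gene of galectin-3, was at 10167 ± 292 TPM, and Tmsb4x, which encodes an actin-binding peptide, at 9766 ± 2138. Eef1a1, a translation elongation factor, and the ribosomal gene Rplp1 were at 9212 ± 1178 and 3699 ± 646 TPM. The mitochondrial cytochrome oxidase genes mt-Co3, mt-Co1 and mt-Co2 were at 11546 ± 2074, 5794 ± 1505 and 4846 ± 1236 TPM.

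**Figure D2:**
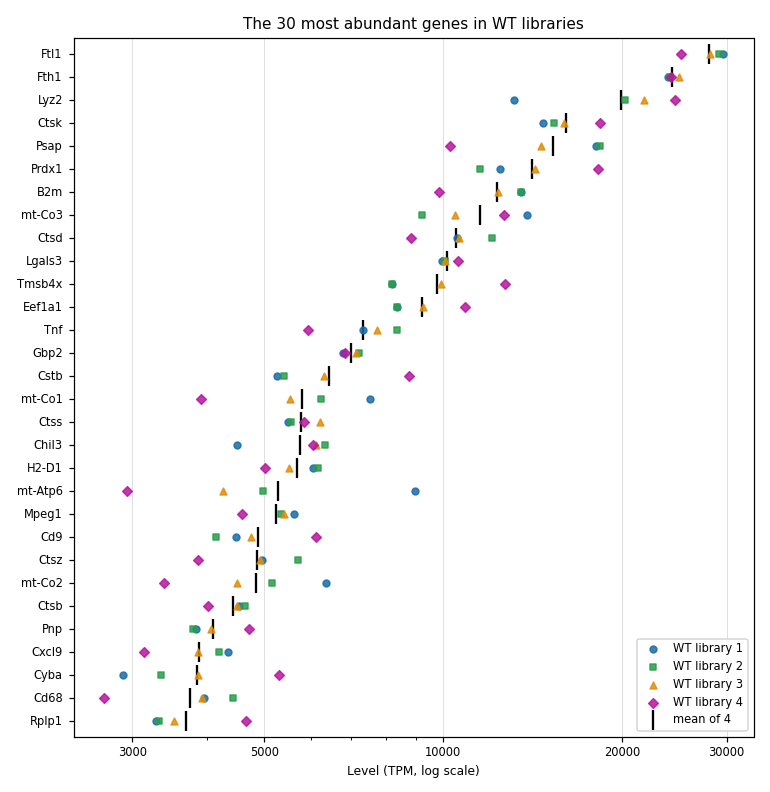
Levels of the 30 genes with the highest mean TPM (horizontal axis, TPM, log scale) in the 4 WT libraries (coloured symbols) with the mean of 4 (bar). Tnf, Gbp2, Chil3 and Cxcl9 lie among lysosomal, ribosomal and mitochondrial genes, and library 4 is often at one end of a row.

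Interferon gamma and bacterial products act in part through short DNA elements near gene starts. The windows of 250 bases before the start of a gene were searched, on both strands, for 4 short runs of letters. These were TTC, any 3 bases and GAA for GAS, an element through which interferon gamma acts, and GAAA, any 2 bases and GAAA for ISRE, bound by interferon regulatory factors. They were GGG, any 2 bases and TTTCC for NF-kB, and TGA, any 1 base and TCA for AP-1. Matches of different elements may overlap. Among 16429 protein-coding genes with a window, 6.64% held GAS letters, 3.10% ISRE letters, 1.36% NF-kB letters and 6.09% AP-1 letters. A match is a description of the letters and not a site of binding. Each of the 6 windows below holds a match. They run from the factor Irf1, through effectors and chemokines, to an interferon alpha gene with no counts. The windows of the abundant genes Tnf, Cxcl9, Acod1 and Ifi47 held none of the 4 runs of letters and are not shown. Sequences are from RefSeq on GRCm38.p6, read 5′ to 3′ on the strand of the gene, and capitals mark the matches.
Irf1, chr11:53769764-53770013, plus strand: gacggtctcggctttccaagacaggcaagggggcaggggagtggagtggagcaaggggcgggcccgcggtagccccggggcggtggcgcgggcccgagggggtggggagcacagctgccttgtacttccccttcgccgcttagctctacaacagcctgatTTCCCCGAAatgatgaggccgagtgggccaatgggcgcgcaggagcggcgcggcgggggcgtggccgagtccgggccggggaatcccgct
Gbp2, chr3:142620413-142620662, plus strand: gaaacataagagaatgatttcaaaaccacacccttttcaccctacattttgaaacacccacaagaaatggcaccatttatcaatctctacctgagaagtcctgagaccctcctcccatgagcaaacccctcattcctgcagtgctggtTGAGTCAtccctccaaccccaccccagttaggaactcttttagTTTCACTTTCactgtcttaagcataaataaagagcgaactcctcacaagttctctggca
Isg15, chr4:156200819-156201068, minus strand: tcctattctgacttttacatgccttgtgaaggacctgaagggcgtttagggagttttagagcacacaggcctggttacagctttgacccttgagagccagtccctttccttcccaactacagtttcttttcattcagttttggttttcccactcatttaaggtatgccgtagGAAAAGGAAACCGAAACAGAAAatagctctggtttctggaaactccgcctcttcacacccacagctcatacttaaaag
Cxcl10, chr5:92348890-92349139, minus strand: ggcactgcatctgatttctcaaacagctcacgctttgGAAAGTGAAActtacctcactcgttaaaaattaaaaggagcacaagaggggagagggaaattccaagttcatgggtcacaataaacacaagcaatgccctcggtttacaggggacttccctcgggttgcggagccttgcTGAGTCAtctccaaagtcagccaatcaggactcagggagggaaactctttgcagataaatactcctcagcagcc
Cxcl2, chr5:90903649-90903898, plus strand: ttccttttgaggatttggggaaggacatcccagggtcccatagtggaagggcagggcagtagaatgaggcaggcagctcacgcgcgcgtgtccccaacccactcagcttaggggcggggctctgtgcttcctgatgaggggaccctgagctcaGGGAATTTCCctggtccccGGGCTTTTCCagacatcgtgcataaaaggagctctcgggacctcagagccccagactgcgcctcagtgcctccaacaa
Ifna4, chr4:88841566-88841815, plus strand: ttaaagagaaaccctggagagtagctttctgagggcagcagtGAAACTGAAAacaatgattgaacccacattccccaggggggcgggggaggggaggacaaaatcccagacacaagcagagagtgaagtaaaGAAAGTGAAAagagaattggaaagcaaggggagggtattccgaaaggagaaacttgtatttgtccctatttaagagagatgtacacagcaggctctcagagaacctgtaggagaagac

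The Irf1 window held GAS letters with their first base 90 bases before the start. Gbp2 held ISRE letters on the opposite strand at 59 bases before the start and AP-1 letters at 102. Isg15 held 3 ISRE matches, which overlapped, beginning 78, 72 and 66 bases before the start. Cxcl10 held ISRE letters at 213 and AP-1 letters at 74 bases, and Cxcl2 held 2 NF-kB matches at 97 and 78 bases. Ifna4 held 2 ISRE matches, at 208 and 118 bases, and its gene had 0 counts. The start in the GENCODE annotation used here for gene lengths lay 61 bases from the RefSeq start for Gbp2, 45 bases for Ifna4 and 28 bases for Cxcl2, so distances depend on the start chosen.

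As a group, 10 of the 11 interferon-inducible GTPase genes with a window held ISRE letters, as did 11 of 24 type I interferon-stimulated genes. So did 11 of the 18 interferon genes. All 11 of them are interferon alpha or related genes at 1 count or fewer in any library, so silent genes also held the letters. Among the 111 protein-coding genes at 1000 TPM or more with a window, 9.91% held ISRE letters. The share was 5.62% at 100 to 1000 TPM and 2.31 to 3.52% in each lower level class, with 3.52% at 0 counts. Over all protein-coding genes with a window it was 3.10%. NF-kB letters were found in 4 of the 9 genes of the NF-kB list with a window. Of the 11 CXC chemokine genes with a window 3 held them, namely Cxcl1, Cxcl2 and Cxcl3. Over all protein-coding genes with a window the share with NF-kB letters was 1.36%. These shares describe lists whose members were known to respond, and no test was made of them.

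Cytokine genes ranged from Tnf down to no count at all. Of 118 cytokine genes, 38 reached 1 TPM, a share of 32.2% against 43.4% of all protein-coding genes, and 60 had at most 3 counts in every library, where 45.2% of all protein-coding genes did. Genes at 100 TPM or more numbered 15, or 1342 (6.19%) among all protein-coding genes. Tnf was above every other gene of the TNF superfamily in all 4 libraries. Next in that family came Tnfsf15, a ligand of death receptor 3, at 163 ± 45.1 TPM, 44.9-fold lower by mean. Tnfsf12 (TWEAK) stood at 116 ± 17.6 TPM, Tnfsf13 (APRIL) at 91.1 ± 26.6 and Tnfsf9 (the ligand of 4-1BB) at 29.5 ± 5.42. Ltb and Lta, the lymphotoxins, were at 0.924 and 0.494 TPM, and Cd40lg, a ligand of T cells, had 0 counts.

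In the interleukin 1 family the antagonist was more abundant than the agonists. Il1rn, the gene of the receptor antagonist, was at 1359, 927, 948 and 676 TPM in libraries 1 to 4 (978 ± 283). Il1a was at 774, 693, 622 and 461 TPM (638 ± 133), and Il1b was at 187, 132, 169.9 and 176 TPM (166 ± 24.1). Il1rn was above Il1a in all 4 libraries although their ranges overlapped, and Il1a was above Il1b in all 4 with ranges apart. Il18, whose product favours interferon gamma release, was at 109 ± 26.3 TPM, and Il1f9, an epithelial-type member of the family, at 20.1 ± 4.45. Il33, an alarm signal of barrier cells, was at 0.331 TPM, and Il1f5, Il1f8 and Il1f10 had 0 counts. Il1b and Il18 proteins need cleavage before release, which these counts do not measure.

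Subunits of the interleukin 12 family were far apart. Il12b, which encodes the p40 subunit shared by interleukins 12 and 23, was at 101, 114, 128 and 102 TPM in libraries 1 to 4 (111 ± 12.3). Its partner in interleukin 12, Il12a, had 1, 5, 3 and 0 counts, and its partner in interleukin 23, Il23a, had 3, 2, 5 and 3 counts. The p40 message thus stood near 100 TPM with both partner messages near the limit of detection. Il27, the p28 subunit of interleukin 27, was at 250.4, 246, 212 and 172 TPM (220.1 ± 36.5), and its partner Ebi3 at 1.58, 2.20, 3.47 and 1.80 TPM (2.26 ± 0.847). Il6, a cytokine of the acute phase, was at 157, 102, 139 and 161 TPM (139.6 ± 27.1). Il27 was above Il6 in all 4 libraries with ranges apart, and Il6 was above Il12b in 3 of 4. With the median length of basic transcripts Il6, at 197 TPM, came out above Il27, at 135. Osm, oncostatin M, stood at 3.43 ± 1.11 TPM and Lif at 0.897.

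Cytokines of the interleukin 10 family and of lymphocytes were mostly at or near 0. Il10, the main cytokine that restrains macrophages, had 0 counts in all 4 libraries, which allows up to 0.187 TPM. Il19, Il20 and Il24 of the same family had at most 3 counts in any library, and Il22 stood at 6, 2, 12 and 3 counts. Among 19 T helper and common gamma chain cytokines, Il15, a survival factor of NK cells and memory T cells, was the one gene at 1 TPM or more, at 4.40 ± 0.312 TPM. Il2, Il4, Il5, Il13 and Il21 had 0 counts. Colony-stimulating factors were low, with Csf1, the macrophage growth factor, at 21.4 ± 5.40 TPM, Csf3, which drives neutrophil production, at 1.254 ± 0.334, and Csf2, the factor on which alveolar macrophages depend in the lung, at 3, 0, 0 and 0 counts.

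Among the interferon genes Ifnb1 stood alone. Ifnb1 was at 29.3, 23.2, 31.8 and 51.1 TPM in libraries 1 to 4 (33.9 ± 12.03), highest in library 4. The other 17 interferon genes of the list had at most 3 counts in every library, and 13 had 0 counts. Of all protein-coding genes, 45.2% and 36.8% did. Ifng, the gene of the cytokine that had been added, had 0, 0, 1 and 0 counts. Interferon alpha genes are near-identical copies of each other, so a count for a single member is uncertain, but their counts were at or near 0 throughout. Ifnk stood at a mean of 0.195 TPM.

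Growth factors and other secreted products included some of the most abundant messages. Spp1, the gene of osteopontin, was at 2790.0, 2423, 2681 and 2533 TPM (2607 ± 162). Grn, progranulin, stood at 941 ± 294 TPM, Mif, macrophage migration inhibitory factor, at 359 ± 67.2, and Tgfb1 at 284 ± 69.5. Gdf15, a stress cytokine, was at 183 ± 23.1 TPM and Inhba, the activin A subunit, at 87.4 ± 26.1. Grn and Tgfb1 were lowest in library 4. Vegfa, the main blood vessel growth factor, was at 0.275 ± 0.00807 TPM, below Vegfb at 18.1 ± 2.49, and Hgf and Pdgfa were at 0.0980 and 0.118 TPM.

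**Figure D3:**
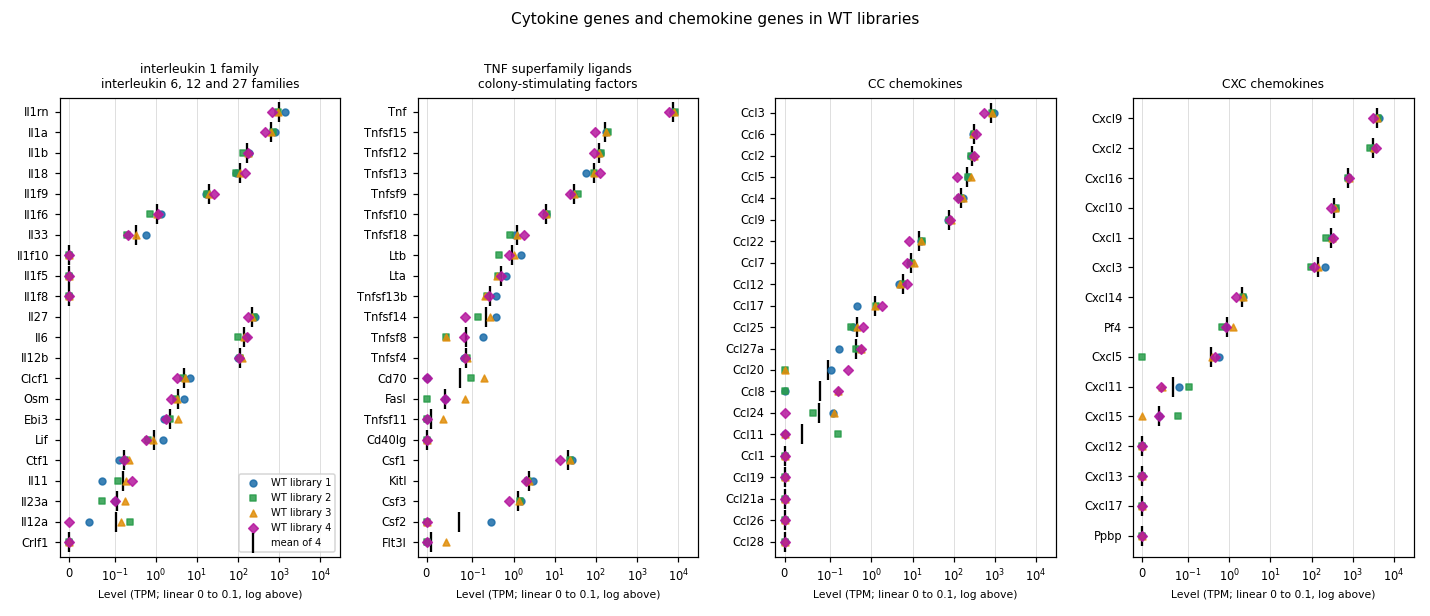
Levels of cytokine and chemokine genes (horizontal axis, TPM, linear from 0 to 0.1 and log above) in the 4 WT libraries (coloured symbols) with the mean of 4 (bar), in order of mean within each list. Genes such as Tnf, Il1rn, Cxcl9, Cxcl2 and Ccl3 stand above 500 TPM, Il27 heads the interleukin 6, 12 and 27 families at 220.1 TPM, while Il12a and Il23a lie near 0.1 TPM.

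Chemokine genes that attract T cells and neutrophils were both abundant. Of 38 chemokine genes, 17 reached 1 TPM (44.7%), a share near the 43.4% of all protein-coding genes. At 100 TPM or more stood 11, where 6.19% of all protein-coding genes did. Cxcl9 was at the values given above. Cxcl2, which draws neutrophils through CXCR2, was at 3152, 2626, 3317 and 3593 TPM in libraries 1 to 4 (3172 ± 407). Cxcl9 was above it in 3 of 4 libraries, library 4 being the exception, but with the median length of basic transcripts Cxcl2 was higher, at 2700.3 against 2486 TPM. Cxcl16, a membrane-bound ligand of CXCR6, was at 779 ± 33.2 TPM. Cxcl10, like Cxcl9 a ligand of CXCR3, was at 372, 387, 365 and 290.5 TPM (354 ± 43.02), so that Cxcl9 exceeded it in every library. Cxcl11, which shares that receptor, had 4, 5, 2 and 2 counts. The 3 ligands of the same receptor thus spanned from rank 27 to near the limit of detection. Cxcl1 was at 295 ± 50.9 TPM and Cxcl3, in the same cluster on chromosome 5 as Cxcl1 and Cxcl2, at 144 ± 51.6. Their order was Cxcl2, Cxcl1, Cxcl3 in all 4 libraries. Cxcl5 had 14, 0, 9 and 11 counts and Cxcl15, a chemokine of lung epithelium, 1, 2, 0 and 1, while Cxcl12 and Cxcl13, which guide lymphocytes and stem cells, had 0.

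Of the CC chemokines, Ccl3 was the most abundant. Ccl3, also called MIP-1 alpha, was at 951, 838, 867 and 552 TPM (802 ± 173), lowest in library 4. Its close relative Ccl4 was at 172, 142, 167 and 126 TPM (152 ± 21.2), below it in every library. Ccl6 was at 309.7 ± 20.3 TPM and Ccl9 at 78.3 ± 6.11, and both varied little between libraries. Ccl2, which draws monocytes through CCR2, was at 282 ± 29.7 TPM, while Ccl7 and Ccl12, which share that receptor, stood at 9.001 ± 1.46 and 5.70 ± 1.09 TPM. Ccl5, or RANTES, was at 224, 219.6, 269 and 119 TPM (208 ± 63.4), with library 4 below the other 3. Chemokines tied to interleukin 4 responses were low, with Ccl22 at 14.3 ± 3.96 TPM, Ccl17 at 3, 8, 8 and 12 counts and Ccl24 at 2, 1, 2 and 0 counts. Ccl19, Ccl21a, Ccl28 and Ccl1 had 0 counts.

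Receptors for lipoproteins and for fungal or mycobacterial sugars were among the most abundant receptors for microbes. Of 236 receptor genes, 134 reached 1 TPM (56.8%) and 45 reached 100 TPM, where 43.4% and 6.19% of all protein-coding genes did. Tlr2, the receptor of bacterial lipoproteins, was at 1175, 918, 946 and 769 TPM in libraries 1 to 4 (952 ± 168). Tlr4, the receptor of lipopolysaccharide, was at 24.4, 24.2, 22.8 and 22.7 TPM (23.5 ± 0.871), one of the steadiest receptor genes. Its co-receptors were unequal, with Cd14, which hands lipopolysaccharide on, at 254 ± 59.8 TPM and Ly96, which encodes MD-2, at 20.5 ± 2.05. Tlr2 was above Cd14, and Cd14 above Tlr4, in every library. The partners of Tlr2 were much lower than Tlr2 itself, with Tlr6 at 16.9 ± 1.33 and Tlr1 at 3.71 ± 0.573 TPM.

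Receptors of nucleic acids in endosomes were also spread widely. Tlr7, for single-stranded RNA, was at 244, 147, 181 and 94.2 TPM (167 ± 62.6), and the chaperone gene Unc93b1, which carries such receptors to the endosome, at 176 ± 44.7. Tlr13, for bacterial ribosomal RNA, was at 22.4 ± 6.37 TPM, Tlr3 at 9.57 ± 2.43 and Tlr9 at 6.46 ± 2.17. Tlr8, on the X chromosome, was at 5.03, 1.73, 4.04 and 0.493 TPM, high in libraries 1 and 3, where Xist was present, and low in libraries 2 and 4, where Ddx3y was. Tlr7, also on the X chromosome, was highest in libraries 1 and 3 as well. What part the sex of the pools had in these values was not tested. Tlr5, the flagellin receptor, had 5, 3, 1 and 2 counts, and Tlr11 a mean of 0.00612 TPM.

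C-type lectins were among the most abundant receptors. Clec4e, or Mincle, a receptor of mycobacterial glycolipids, was at 2781, 2823, 3403 and 4188 TPM (3299 ± 657). Clec7a, or Dectin-1, which binds beta-glucan, was at 2642, 2729, 3181 and 3927 TPM (3119.9 ± 588), and the annotation used here lists it as a polymorphic pseudogene. Clec4n, or Dectin-2, was at 1875 ± 515 TPM and Clec4d at 746 ± 167. Library 4 was highest for all 4 of these lectin genes. Clec4e was above Clec7a in all 4 libraries, although their ranges overlapped. The order depends on the gene length used, since with the longest transcript Clec7a was higher, at 2807 against 2648 TPM, and with basic transcripts Clec4e was higher, at 6158 against 2211. Mrc1 and Clec5a, the latter at 91.7 ± 3.25 TPM, were lower, and their order also turned with basic transcripts, at 212 against 251 TPM. Trem2, which binds lipids and cell debris, was at 18.3 ± 1.73 TPM and Trem1, which amplifies inflammation, at 0.515 ± 0.164. Mgl2 and Cd209a, lectins of other macrophages and dendritic cells, had 0 counts.

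Receptors for antibodies and complement were led by their shared signalling subunits. Fcer1g, the common gamma chain of activating Fc receptors, was at 2254 ± 74.6 TPM, and Itgb2, the beta chain CD18 of the leukocyte integrins, at 2059 ± 364. Of the ligand-binding chains, Fcgr3 was at 850.1, 1080.0, 1173 and 1469 TPM (1143 ± 256) and Fcgr4 at 598, 729, 777 and 875 TPM, both highest in library 4. Fcgr2b, the inhibitory receptor, stood at 26.2 ± 4.69 TPM and Fcgr1, the high-affinity receptor, at 15.98 ± 2.32. Among the integrin alpha chains, Itgax exceeded Itgal (310.1 ± 87.9 TPM) and Itgam, the gene of CD11b (36.5 ± 5.48 TPM). Itgax was above Itgam in every library. Vsig4, a complement receptor of tissue macrophages, had 0 counts, and C5ar1 was at 13.96 ± 3.61 TPM.

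Receptors for the uptake of particles and dying cells included Cd68, given above, and the scavenger receptor Cd36 at 1205 ± 169.8 TPM. Axl, which recognises dying cells through GAS6, was at 1292, 1203, 942 and 613 TPM (1013 ± 305) and its relative Mertk at 139.6 ± 30.5. Marco, a scavenger receptor for bacteria typical of alveolar macrophages, was at 127, 315, 272 and 98.2 TPM (203 ± 107). Libraries 2 and 3 were high and libraries 1 and 4 low, a spread among the widest of all genes above 10 TPM. Olr1, for oxidised lipoproteins, was at 240.3 ± 74.3 TPM and Msr1, scavenger receptor A, at 8.65 ± 0.628. Cd163, the haemoglobin scavenger receptor, had 0 counts, which allows up to 0.0449 TPM.

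Receptors for the added interferon were above 10 TPM, and those for other cytokines were spread widely. Of 45 interleukin and growth factor receptor genes, 8 reached 100 TPM, 16 reached 10 TPM and 22 were under 1 TPM, with a median of 1.17. Of these 45 genes 51.1% reached 1 TPM, against 43.4% of all protein-coding genes, of which 6.19% reached 100 TPM. Ifngr1 was at 29.01, 32.1, 33.3 and 33.9 TPM (32.1 ± 2.16) and Ifngr2 at 94.4, 88.2, 81.4 and 59.4 TPM (80.9 ± 15.2), so the second chain was above the first in every library. The chains of the type I interferon receptor followed the same order, with Ifnar2 at 55.95 ± 9.74 TPM and Ifnar1 at 18.9 ± 3.26. Ifnlr1, of the interferon lambda receptor, had 0 counts. Csf2ra and Csf2rb, the receptor chains for GM-CSF, were at 193 ± 50.9 and 233 ± 68.6 TPM, above Csf1r, the receptor of the macrophage growth factor, at 36.3 ± 11.9. Il2rg, the common gamma chain, was at 375 ± 74.5 TPM and Il10ra at 150.4 ± 31.8. Il4ra stood at 32.4 ± 6.24 TPM and Il13ra1 at 165 ± 4.62. Il12rb2 was at 55.9 ± 17.3 TPM while its partner Il12rb1 was at 0.239. Il1r1 and Il6ra, through which interleukins 1 and 6 signal, were at 0.176 ± 0.0547 and 0.350 ± 0.145 TPM.

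In the TNF receptor family, Cd40, which receives help from T cells, was at 533, 525, 600.3 and 728 TPM (597 ± 93.8), highest in library 4. Both receptors of tumour necrosis factor were abundant, with Tnfrsf1a at 479 ± 144 and Tnfrsf1b at 446 ± 138 TPM. Tnfrsf1a was above Tnfrsf1b in all 4 libraries by a ratio of means of 1.08. Fas was at 103 ± 19.4 TPM. Ccrl2, a non-signalling receptor that presents chemerin, led the chemokine receptors at 546 ± 34.4 TPM. Next came Ccr1 at 92.95 ± 16.7 TPM, Cxcr1 at a mean of 77.7 and Cxcr4 at 37.3 ± 6.37. Of 24 chemokine receptor genes, 8 reached 1 TPM (33.3%, against 43.4% of all protein-coding genes) and 11 had at most 3 counts in every library, as had 45.2% of all protein-coding genes. Receptors of bacterial peptides and metabolites were high, with Fpr2 at 1027 ± 86.9 TPM and Fpr1 at 416 ± 15.97. Hcar2, a hydroxycarboxylic acid receptor that also binds butyrate and niacin, was at 919 ± 90.3 TPM.

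Sensors of the cytosol were broadly present, with 18 of 26 at 1 TPM or more (69.2%, against 43.4% of all protein-coding genes). Ifi204, of the family that senses DNA, was at 309.8 ± 18.99 TPM, Tmem173, the gene of STING, at 277 ± 62.5, and Zbp1, a sensor of Z-form nucleic acids, at 194 ± 22.5. Nlrp3, of the inflammasome, was at 184, 163, 133 and 87.4 TPM (142 ± 41.7), and Casp4, the mouse caspase-11 that binds cytosolic lipopolysaccharide, at 120.0, 127, 147 and 181 TPM (144 ± 27.4). Library 4 was lowest for Nlrp3 and highest for Casp4. Nod1 and Nod2, for peptidoglycan fragments, were at 79.4 ± 19.6 and 6.34 ± 1.90 TPM. Ddx58 and Ifih1, for viral RNA, were at 24.1 ± 6.25 and 59.00 ± 11.98 TPM, and Nlrp1b was near the limit of detection at 8, 3, 6 and 2 counts.

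**Figure D4:**
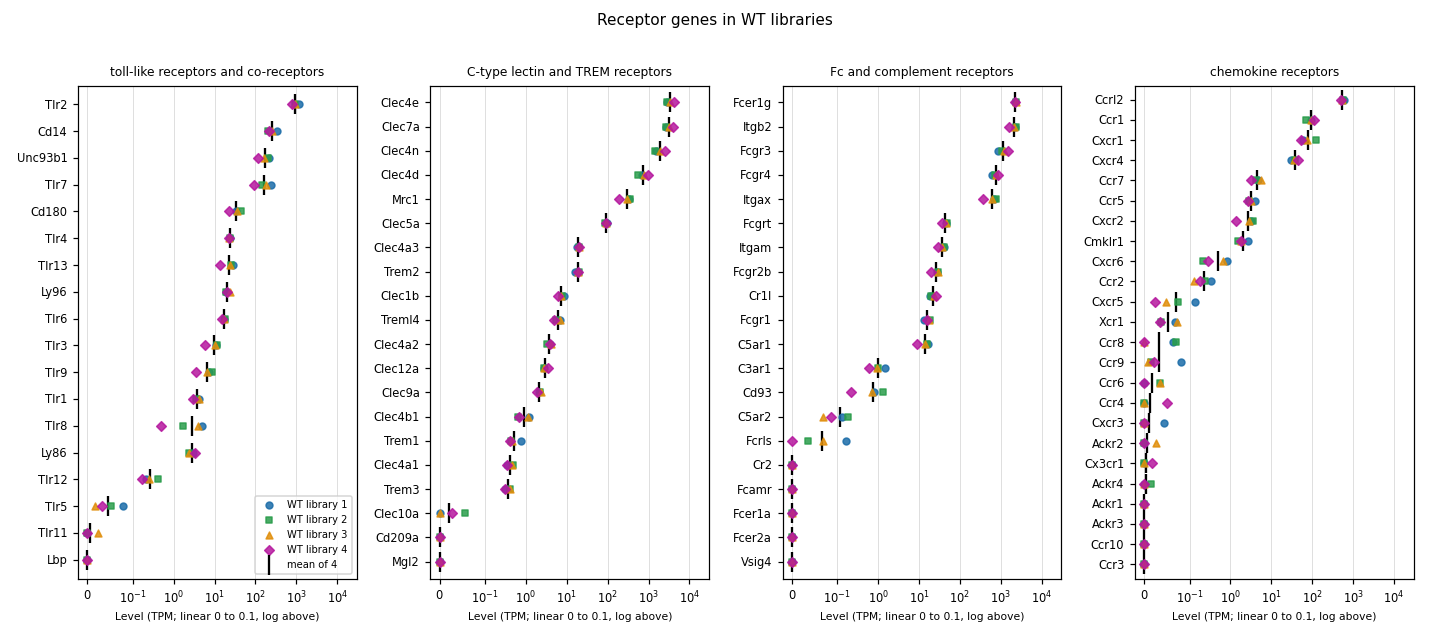
Levels of receptor genes (horizontal axis, TPM, linear from 0 to 0.1 and log above) in the 4 WT libraries (coloured symbols) with the mean of 4 (bar). Tlr2, Clec4e, Clec7a, Fcer1g and Ccrl2 head their lists, and Mgl2, Cd209a and Vsig4 are at 0.

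Transcription factors of the interferon pathway were dominated by Irf1 and Irf8. Of 158 transcription factor genes, 105 reached 1 TPM (66.5%) and 29 reached 100 TPM, where 43.4% and 6.19% of all protein-coding genes did. Irf1, the factor that carries much of the response to interferon gamma, was at 995, 1054, 1082 and 1035 TPM in libraries 1 to 4 (1041 ± 36.4). Irf8, needed for the macrophage lineage and for interleukin 12, was at 893, 866, 838 and 739 TPM (834 ± 67.3). Irf1 was above Irf8 in every library with ranges apart, and Irf8 was above Irf5, at 154 ± 35.99 TPM, likewise. With the median length of basic transcripts as gene length the order of the first pair turned, with Irf8 at 1586 TPM and Irf1 at 1210.1. Irf7 was at 60.5 ± 8.29 TPM and Irf9, a part of the complex that binds ISRE, at 53.1 ± 4.42. Irf4, tied to alternative activation, was at 1.90, 1.18, 1.41 and 1.07 TPM (1.39 ± 0.370). Stat6, the factor downstream of interleukin 4, was at 109, 113, 91.2 and 62.1 TPM (93.9 ± 23.2), Stat2 at 85.3 ± 19.6 and Stat3 at 74.9 ± 19.00, with overlapping ranges. Stat4, of lymphocytes, was at 0.218 TPM. The feedback inhibitors Socs1 and Socs3 stood at 101 ± 22.6 and 172 ± 44.2 TPM.

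All 12 genes of NF-kB subunits and inhibitors were above 10 TPM, a level that 5735 of all 21695 protein-coding genes reached. Inhibitors led, with Nfkbia, the gene of I-kappa-B alpha, at 358, 392, 348 and 342 TPM (360.3 ± 22.5), Nfkbib at 247 ± 30.2 and Nfkbie at 201 ± 22.6. Tnfaip3, or A20, an enzyme that ends NF-kB signalling, was at 151 ± 30.3 TPM. Among the subunits, Rela was at 189, 168, 145 and 93.5 TPM (149 ± 41.1), Nfkb2 at 162 ± 43.7, Nfkb1 at 64.9 ± 16.9, Relb at 39.5 ± 9.62 and Rel at 29.2 ± 5.44. Rela was lowest in library 4, whereas Nfkbia varied little. The level of Nfkb1 depends on the gene length used, since its merged exons are 12061 bases long and its longest transcript 4149. With the longest transcript Nfkb1 was at 147 TPM, against 131 for Rela and 150 for Nfkb2.

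Within the AP-1 family, Atf3, a factor induced by stress that restrains toll-like receptor responses, stood first at 609, 634, 675 and 644 TPM (640.4 ± 27.04), steady across libraries. Jund was at 352 ± 109 TPM and Junb at 310.4 ± 26.7, while Jun was at 34.6 ± 7.40 and Fos at 10.1 ± 2.90. The BATF factors differed in level. Batf2, the gene studied in the series, was at 221, 217, 192 and 136 TPM (192 ± 39.4), highest in library 1 and lowest in library 4. Batf was at 44.1, 55.6, 57.1 and 74.1 TPM (57.7 ± 12.4) and Batf3 at 8.17, 9.17, 8.78 and 11.9 TPM (9.51 ± 1.66). The order Batf2, Batf, Batf3 held in all 4 libraries, although Batf and Batf3 were highest in library 4, where Batf2 was lowest. Their merged exons are 2522, 1406 and 1597 bases long in that order. The median log2 difference of library 4 from the others was -0.11 for genes of 2 to 4 kb and 0.19 for those of 1 to 2 kb. What part length had in the values of the BATF genes was not tested. Batf2 overlaps another gene on the opposite strand and the strand setting of the count was not given, so its counts carry that uncertainty. Maf, a factor of other tissue macrophages, was at 0.615 ± 0.165 TPM.

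Factors of the myeloid lineage were led by Id2 at 576 ± 90.1 TPM, an inhibitor of E proteins, and Spi1, the gene of PU.1, at 441, 451, 398 and 332 TPM (406 ± 54.2). Cebpb was at 359, 367, 326 and 189 TPM (310.3 ± 82.6) and Cebpa at 150.1 ± 44.8. Cebpb was lower in library 4 than in the other 3. Bhlhe40 and Bhlhe41, which support the self-renewal of alveolar macrophages, stood at 185 ± 41.1 and 127 ± 32.5 TPM. Klf6 was at 454 ± 21.1 TPM and Hif1a, the hypoxia factor that drives glycolysis in activated macrophages, at 301 ± 47.97. Egr2 was at 105 ± 24.3 TPM while its relative Egr1, an immediate early gene, was at 0.556 ± 0.150. Myc stood at 13.8 ± 3.65 TPM and Klf4 at 10.4 ± 2.62. Of 28 factors of other lineages, Tcf3 alone reached 1 TPM, at 5.97 ± 1.248. At most 3 counts in every library were seen for 24, and for 45.2% of all protein-coding genes. Gata2, Ebf1, Eomes, Sox2 and Sox17 were among the 13 with 0 counts.

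**Figure D5:**
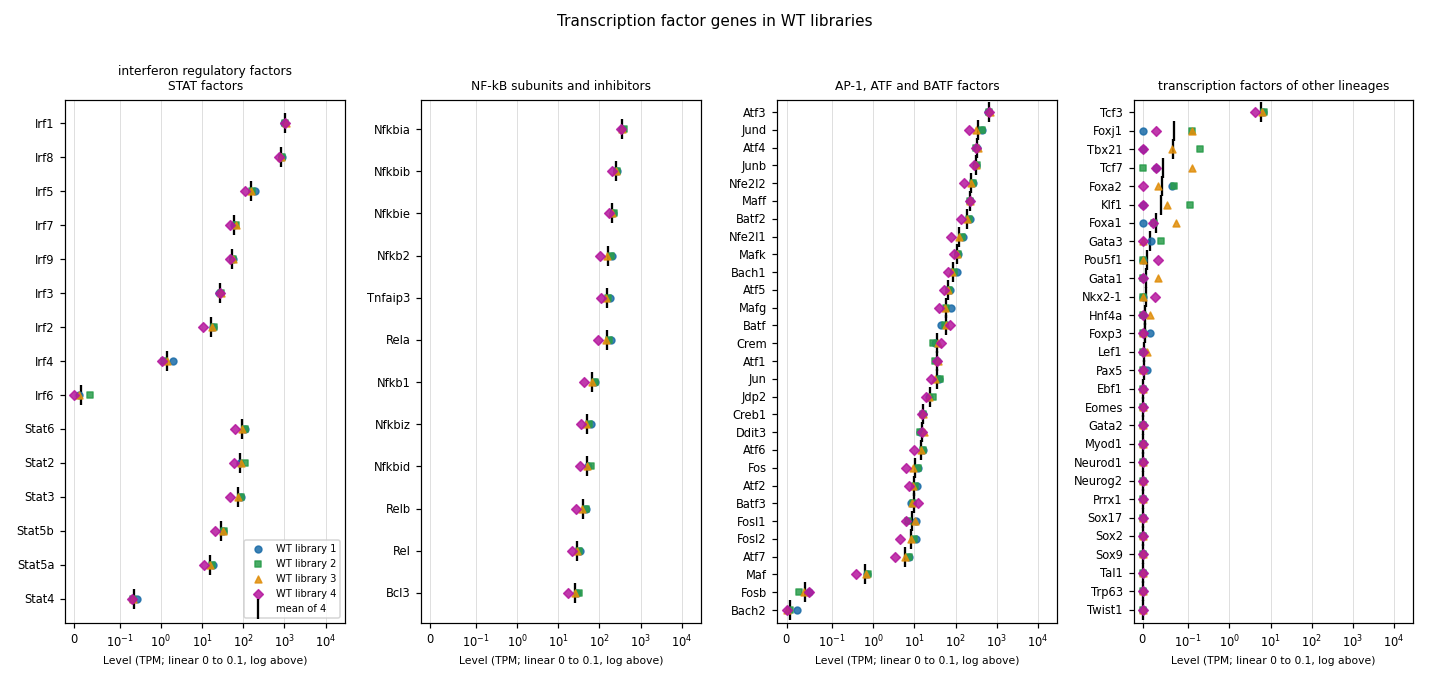
Levels of transcription factor genes (horizontal axis, TPM, linear from 0 to 0.1 and log above) in the 4 WT libraries (coloured symbols) with the mean of 4 (bar). Irf1, Irf8, Nfkbia and Atf3 head their lists, and factors of other lineages lie near 0 with the exception of Tcf3.

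Antigen presentation genes were abundant throughout class I and for most of class II. All 20 genes of MHC class I presentation were above 10 TPM, a level that 5735 of all 21695 protein-coding genes reached. Together these 20 summed to 2.577 ± 0.264% of TPM. H2-D1 was at 6046, 6164, 5513 and 5007 TPM (5682 ± 532) and H2-K1 at 2287, 2032, 1799 and 1477 TPM (1899 ± 345), though class I genes are similar enough that reads could be shared. The peptide-loading gene Tapbp was at 1453 ± 379 TPM, the transporter genes Tap1 and Tap2 at 241 ± 49.9 and 176 ± 44.97, and the immunoproteasome subunit genes Psmb8 and Psmb9 at 361 ± 41.3 and 79.3 ± 15.04. For class II, Cd74, the invariant chain, was at 4937, 3818, 3815 and 2136 TPM (3677 ± 1155), highest in library 1 and lowest in library 4. H2-Ab1 was at 828 ± 83.1 TPM, H2-Aa at 676 ± 156 and H2-Eb1 at 596 ± 137. Ciita, which switches class II genes on, was at 22.9, 25.5, 21.3 and 13.5 TPM (20.8 ± 5.14), and H2-Eb2 had 0 counts. Cd74 was above H2-Ab1 in every library. Of the 14 genes of MHC class II presentation, 9 reached 10 TPM. Under 1 TPM stood 2 of them, H2-Eb2 included, as did 12290 of all protein-coding genes.

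Ligands that speak to T cells were unequal. Cd274, the gene of PD-L1, which inhibits T cells, was at 820.5, 770.0, 799 and 654 TPM (761 ± 74.03). Its relative Pdcd1lg2, the gene of PD-L2, was at 2.17, 1.54, 1.63 and 1.17 TPM (1.63 ± 0.409). The costimulatory genes Cd86 and Cd80 were at 34.5, 34.4, 47.4 and 46.8 TPM (40.8 ± 7.29) and 28.2, 22.8, 25.6 and 22.5 TPM (24.8 ± 2.69), both below Cd274 in every library. Cd86 was higher in libraries 3 and 4 than in libraries 1 and 2. Cd48 was at 215 ± 17.05 TPM, Lgals9 at 247 ± 40.6 and Cd83 at 129.6 ± 14.8. Ido1, a tryptophan-degrading enzyme that interferon gamma induces in human macrophages, had 0, 6, 2 and 4 counts.

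Adhesion genes were led by tetraspanins and leukocyte integrins. Cd53 was at 2258 ± 139 TPM, Cd63 at 1161 ± 186, Icam1, the ligand of leukocyte integrins, at 909.9, 1029.8, 864 and 693 TPM (874 ± 139), and Cd44, the hyaluronan receptor, at 418 ± 78.03. Vcam1 was at 6.84 ± 1.77 TPM. Sele and Selp, selectin genes of endothelium and platelets, had at most 3 counts in every library. The platelet and endothelial gene Pecam1 was at 0.0665 TPM.

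Classical activation genes stood far above most alternative activation markers. All 26 genes of classical activation were at 1 TPM or more and 22 reached 100 TPM, with a median of 227 TPM. Of all protein-coding genes, 43.4% reached 1 TPM and 6.19% reached 100 TPM. The 22 alternative activation markers had a median of 1.41 TPM, against 0.171 TPM over all protein-coding genes. Of the 22, 9 had at most 3 counts in every library, 5 of these with 0. Of all protein-coding genes, 45.2% had at most 3 counts and 36.8% had 0. Cybb, the catalytic subunit of the superoxide-producing oxidase, was at 4389, 3069.7, 3682 and 2275 TPM (3354 ± 899). Slc7a2, which imports arginine, and Ass1, which recycles it from citrulline, were at 646 ± 189.6 and 441 ± 50.8 TPM, and Gch1, which makes a cofactor of nitric oxide synthase, at 142 ± 20.9. Arg1, the arginase that competes for arginine, had 0, 0, 0 and 1 counts, and 3 counts would have been at most 0.110 TPM in any library. Ptgs2, or cyclooxygenase 2, was at 722, 485, 517 and 308 TPM (508 ± 169.7), highest in library 1. Of the alternative activation markers 12 reached 1 TPM (54.5%), a share above that of all protein-coding genes. They were led by Chil3, Tgm2 at 1119, 1015, 833 and 571 TPM (884 ± 240.1), Mrc1 and Ear2 at 166 ± 16.7. Retnla, the resistin-like gene of interleukin 4 responses, and Mgl2 and Alox15 had 0 counts. Chil3, Mrc1 and Ear2 are also markers of alveolar macrophages.

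Genes induced by interferons were almost all present. Of 21 interferon-inducible GTPase genes, 18 reached 1 TPM (85.7%) and 11 reached 100 TPM, where 43.4% and 6.19% of all protein-coding genes did. After Gbp2 came Ifi47 at 1150.3, 1143, 1359.7 and 1748 TPM (1350.3 ± 284), Tgtp2 at 962 ± 127, Iigp1 at 678 ± 29.2, Gbp5 at 441 ± 43.1, Irgm1 at 419.8 ± 77.2 and Igtp at 365 ± 26.3. Ifi47 was highest in library 4. Gbp2b, Gbp10 and Gbp11 were under 1 TPM. These genes lie in clusters of similar copies, so the split of reads between members is uncertain. Of 28 type I interferon-stimulated genes 27 reached 1 TPM (96.4%, against 43.4% of all protein-coding genes). Isg15, a ubiquitin-like modifier, was at 1201, 1189, 1504 and 1444 TPM (1334 ± 163), Bst2, which tethers budding virus, at 429 ± 40.5, Rsad2, or viperin, at 314 ± 67.3, and Ifit2 at 249 ± 37.8. Mx1 and Mx2, the antiviral dynamin-like GTPases, were at 6.95 ± 1.40 and 2.52 ± 0.663 TPM, and Ifi44 at 0.160.

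A single gene stood above 10 TPM among the proliferation genes listed. Of 14 cycling cell markers, 6 reached 1 TPM (42.9%), a share near the 43.4% of all protein-coding genes. Pcna, the sliding clamp of DNA replication, was at 486, 456, 562 and 699.9 TPM (551 ± 109), 109-fold above the next marker, Mcm5, at 5.05 ± 0.562. Mki67 and Top2a, found in dividing cells, were at 0.571 ± 0.341 and 0.391 ± 0.109 TPM.

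Variation between the libraries was modest for most genes. Over 5784 genes with a mean of at least 10 TPM, the median coefficient of variation was 15.8%. In 592 of them (10.2%) the highest library was more than 2 times the lowest, and library 4 was the lowest in 544 of these. More than a 4-fold range was seen in 9 genes, all of which except Rps12 had under 1 kb of merged exon. They were Rps12, Rps27rt and Rpl37rt, the histone gene Hist2h2aa2, the mitochondrial gene mt-Atp8, and Gm9830, Gm10131, Gm7334 and Gm2000, which have provisional symbols. Rpl37rt, Gm9830 and Gm7334 are annotated as processed pseudogenes, so reads could be shared with their parent genes and these counts are uncertain. The gene mt-Atp8 ranged from 5128 TPM in library 1 to 1162 in library 4, and mt-Atp6 from 8960.4 to 2939. The mitochondrial genes mt-Nd5 and mt-Nd1 were also highest in library 1 and lowest in library 4, ranging from 565 to 171 and from 4665 to 1583 TPM. H2-Q6, a class I gene with near-identical relatives that could share its reads, ranged from 46.2 TPM in library 1 to 14.03 in library 4, and Gm20431, with a provisional symbol, was at 20.96, 57.4, 64.7 and 33.6 TPM. Among genes of macrophage function, C3, the central complement component, was at 209.6, 616, 432 and 267 TPM (381 ± 183), with libraries 2 and 3 above libraries 1 and 4, as for Marco. S100a4, a calcium-binding protein, was at 27.1, 9.11, 11.7 and 15.5 TPM, highest in library 1. Thbs4, a thrombospondin, was at 21.5, 17.4, 20.1 and 5.93 TPM, with library 4 alone low. Kdm5c, an X-linked histone demethylase gene, was at 48.7, 32.2, 39.3 and 15.96 TPM, higher in libraries 1 and 3 than in libraries 2 and 4. Lars2, a mitochondrial leucine tRNA ligase, was at 124, 104, 43.7 and 32.7 TPM.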

How the data were processed

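RNA was isolated with a column kit and libraries were prepared with a kit that keeps strand information, per the labels' protocols. The deposited table gave raw counts for 48709 genes, by symbol and Ensembl identifier, and the file header names them as total counts with no scaling. Per the submitters' processing notes, the build was GRCm38 (mm10). Which aligner, counter, strand setting and annotation release were used is not given in the sources used here. Genes that overlap on opposite strands and near-identical copies were therefore treated as uncertain. Count columns were assigned to a genotype by the heading above them, and 0 columns were left unassigned. Counts of pairs of WT libraries differed beyond sampling noise (chi-square over degrees of freedom of at least 30.6), so none was merged with another.

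TPM values were computed here from the deposited counts with the total length of merged exons in GENCODE M21 (GRCm38). Lengths were found for 48349 genes, and the other 360 held 0.0580 to 0.0674% of counts. Genes were called present at a mean of 1 TPM, and a floor of 3 counts was used for genes at 0. Means and SDs were taken over 4 libraries with no test and no filter. Levels were computed with Python 3.11.15, numpy 2.4.6 and pandas 2.3.3. TMM factors came from edgeR 4.0.16 and size factors from DESeq2 1.42.0, in R 4.3.3, as alternatives in scaling alone. The computation was tested on simulated data. Promoter windows were those of RefSeq on GRCm38.p6, found for 16429 protein-coding genes, and protein sequences were not used here.

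The genes named were the 30 most abundant, members of 50 gene lists (mainly the highest, those at or under 3 counts, and those compared), the 20 with the largest ratio of highest to lowest library, and the markers Chil3, Mrc1, Car4, Nos2, Cxcl9 and Acod1, with Batf2. Some members of these lists are counted in them but not reported here or drawn. Xist and Ddx3y were named outside this rule, as checks of the pools, after their values were seen. The members and lists were chosen with earlier results of these data known. Alternatives tried were other gene lengths, other scalings, other thresholds and leaving out each library.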

Additional observations from a re-analysis of the deposited data

Results flagged for a closer look

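For each of 314 named genes, and for the summed level of each list, the gap between the most distant library and its nearest neighbour was divided by the range of the 4 libraries. A result was set aside for a closer look where this ratio passed Dixon's 95% critical value for 4 samples, which chance passes in about 1 of 20 groups. The genes set aside numbered 14, near that rate. All the genes were measured in the same 4 libraries and are not independent of each other. Whether chance accounts for the number was not tested.

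Library 4 was the low one for Ccl22 (ratio 0.909, 8.32 TPM), Ifnar1 (0.881, 14.04 TPM), Il6ra (0.909, 0.133 TPM), Irf9 (0.964, 46.5 TPM) and Mx1 (0.921, 4.85 TPM). It was also the low one for the summed level of interferon regulatory factors (0.944, 2015 TPM) and of classical activation effectors (0.841, 23799 TPM). Library 4 was the high one for the epithelial gene Sftpc (0.978, 1.34 TPM). It was also the high one for red cell and platelet markers (1.00, 0.189 TPM), from Hba-a1 alone. All 10 of these markers had at most 3 counts in every library. The other libraries were at 0, and the ratio is then 1.00 however small the count.

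Library 1 was the low one for Chil3 (0.833, 4505 TPM), Zbp1 (0.870, 160.2 TPM), Gbp2b (0.950, 0.672 TPM) and the summed interferon-inducible GTPases (0.857, 11750.0 TPM). It was the high one for Trac (0.857, 0.730 TPM) and Trem1 (0.872, 0.760 TPM). Library 3 was the high one for Hopx (0.956, 28.5 TPM) and Ly96 (0.890, 23.5 TPM). For S1pr1, a sphingosine phosphate receptor gene, library 1 was the high one (1.00, 0.149 TPM). The other libraries were at 0 here too, so its ratio was likewise fixed.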

How the results depend on the processing

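The number of genes at 1 TPM or more, 9623, and the counts of cytokine, chemokine, receptor, transcription factor, surface marker and effector genes stayed within 1.5 times under every alternative run. Counts of single lists did not always: 10 of the 50 lists moved by more at a threshold of 5 TPM, 5 with basic transcripts, 3 at 0.5 TPM, and endothelium markers alone, from 2 genes to 1, with the longest transcript, TMM, DESeq2 size factors or without library 1 or 2. The share of TPM in the 10 most abundant genes, 16.35%, was 15.99% with the longest transcript as length, 17.12% with the median length of basic transcripts, an alternative added after seeing the data, and 16.75% without genes of the mitochondrial genome. The share in the 100 most abundant genes, 43.56%, was 40.89, 40.03 and 42.64% under the same settings. These settings change the lengths or the genes counted, so the shares differ by construction. Of 370 named genes, 11 moved by over 1.5-fold with the longest transcript and 140 with basic transcripts, and none with TMM or DESeq2 size factors. Of 30 orders of gene pairs, 2 turned with the longest transcript and 5 with basic transcripts, all printed beside the pairs. Of the 30 most abundant genes, 27 remained with the longest transcript, 25 with basic transcripts and 22 by CPM without length. Leaving out a library kept 28 to 30 of them. It moved Xist, Ddx3y and 10 genes under 1 TPM by over 1.5-fold, not counting 7 further genes counted in a single library that fall to 0 without it (S100a9, Cx3cr1, Csf2, Ifng, Tlr11, Arg1 and S1pr1), for example Trac from 0.268 to 0.114 TPM without library 1 and Sftpc from 0.564 to 0.307 TPM without library 4. No paired analysis was possible because a single group is described and its columns carry no replicate number of the labels. Levels near 3 counts are limited by depth, and the order of genes with overlapping ranges is not settled by 4 libraries.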

Other observations

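Subunits of the phagocyte oxidase, which makes superoxide, were unequal in level. The membrane subunit genes Cyba and Cybb stood at 3856 ± 1045 and 3354 ± 899 TPM, and the cytosolic subunit genes Ncf1 and Ncf4 at 147 ± 36.00 and 95.3 ± 2.84. Sod2, the mitochondrial superoxide dismutase, was at 396 ± 38.7 TPM. Ptges, which makes prostaglandin E2 from the product of Ptgs2, was at 56.7 ± 3.30 TPM, and its receptors Ptger2 and Ptger4 at 4.97 ± 0.960 and 4.61 ± 1.45, while Ptger3 had 0 counts.

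Purinergic and lipid receptors were present at moderate levels. Ptafr, for platelet-activating factor, was at 148 ± 29.4 TPM, the ATP receptor genes P2rx4 and P2rx7 at 82.2 ± 5.25 and 9.65 ± 2.72, and Gpr84, for medium-chain fatty acids, at 71.6 ± 11.5. Adora2a, which dampens inflammation, was at 11.3 ± 3.91 TPM. The sphingosine phosphate receptor gene S1pr2 was at 22.5 ± 4.89 TPM and S1pr1 at 0.0374. P2ry12, a receptor of microglia and platelets, was at 0.0850 TPM.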
